A study of Mus musculus with 12 samples.

Results

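The metabolic nuclear receptors of the liver were followed through Con A hepatitis and its treatment with human mesenchymal stromal cells. The 10 genes were Nr1h4 (FXR), Nr0b2 (SHP), Nr1i2 (PXR), Nr1i3 (CAR), Ppara (PPARα), Rxra (RXRα), Nr1h3 (LXRα), Nr5a2 (LRH-1), Esr1 (ERα) and Nr3c1 (the glucocorticoid receptor). They were chosen by gene symbol, each symbol matched 1 row, and they are 10 of the 11289 genes in the deposited table. A further 26 nuclear receptors in the table, of 39 listed by hand, serve as the comparison.

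Liver RNA was sequenced from 12 C57BL/6J mice, 4 in each of 3 groups. Besides the control group, 2 groups were injected in the tail vein with 15 mg/kg of concanavalin A (Con A), a lectin that stimulates T cells and causes an acute immune hepatitis. After 30 min these mice received PBS (the Con A + PBS group) or 2000000 stromal cells of human Wharton's jelly intravenously (the Con A + hWJ-MSCs group, called Con A + MSCs in the labels), and livers were taken at 24 h. What the control mice were injected with is not stated, the labels give an age of 8 to 10 weeks for the whole study, and the published methods give another age and another cell number than the labels do. The labels name no genetic alteration in any group, and the sequenced tissue was whole liver rather than isolated hepatocytes. Each value is a whole number that the authors had already normalized between mice, called the normalized value here. Sequencing depth is therefore unknown, and precision is limited by the 4 mice of each group.

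Nuclear receptors are transcription factors that carry a pocket for small lipophilic molecules and a zinc-finger domain for DNA. In hepatocytes FXR senses bile acids, CAR and PXR sense drugs and other foreign compounds, PPARα senses fatty acids and LXRα senses oxysterols, and all 5 of these bind DNA as heterodimers with RXRα. SHP has no DNA-binding domain and represses other receptors, LRH-1 binds DNA as a monomer, and the glucocorticoid receptor and ERα are steroid receptors that bind DNA mainly as homodimers.

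The receptors FXR, SHP, PXR and CAR, which sense or control bile acids and foreign compounds, were lower after Con A, and so was ERα. For FXR the groups overlapped, and its call was lost in 10 of the 12 fits that left out 1 mouse. In the Con A + PBS livers, 5 of the 10 receptors fell against control and 0 rose, at a Benjamini-Hochberg adjusted p below 0.05 in limma over all genes with a fold change above 1.5, which is the rule for every call here. Of all 11289 genes, 38.8% were called in this comparison and 19.2% were called lower, against which the 5 of 10 are to be read. In 4 of the 10, every Con A + PBS mouse was below every control mouse, which held for 23.4% of all genes, and 50.4% of all genes did not overlap in either direction. With hWJ-MSCs only Nr1i3 was called against Con A + PBS, where 8.58% of all genes were called, 4.2% higher and 4.38% lower. The groups did not overlap in 3 of the 10 receptors (Nr1h4, Nr1i3 and Ppara), and in 23.5% of all genes. Against control, Esr1 and Ppara were called lower in the Con A + hWJ-MSCs livers, where 26.7% of all genes were called and 13.1% were called lower. These groups did not overlap in 5 of the 10 receptors (Nr0b2, Nr1i2, Nr1h3, Esr1 and Nr3c1), 4 of them lower, and in 37.9% of all genes, 17.3% lower and 20.6% higher. The Con A + PBS mice enter the first 2 of these comparisons and the control mice the first and the last, and the Con A + hWJ-MSCs mice the last 2, so the comparisons are not independent of each other. In whole liver, fewer cells of a type and less RNA per cell cannot be told apart.

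**Figure D1:**
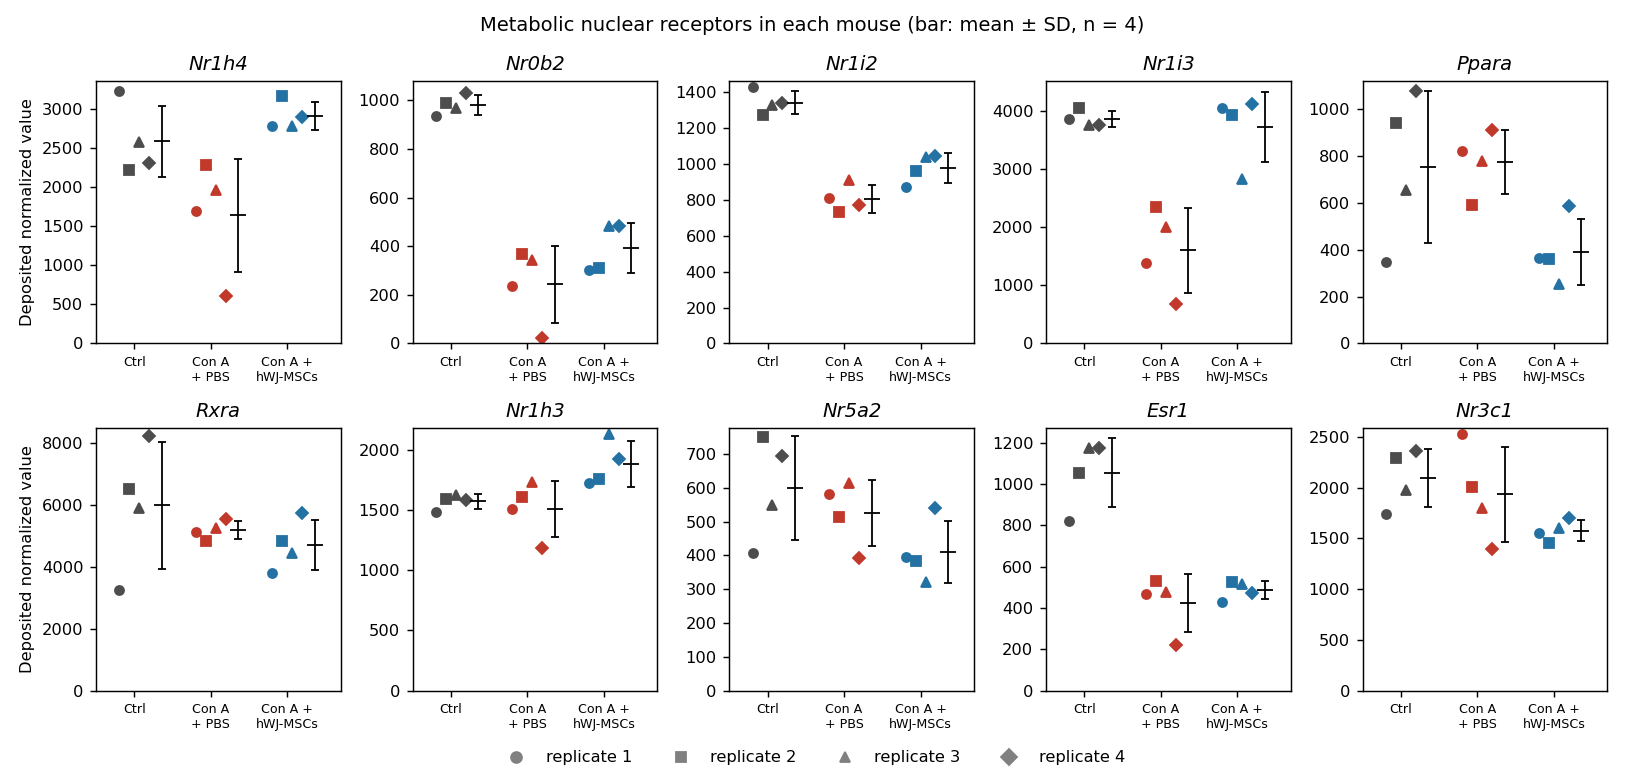
Normalized value of each of the 10 receptors (y axis, linear from 0) in each of the 12 mice, by group (x axis), with marker shapes for replicates 1 to 4 and bars for the mean ± SD (n = 4). Nr0b2, Nr1i2, Nr1i3 and Esr1 lay lower in every Con A + PBS mouse than in any control mouse, and Nr1i3 lay within or above the control values in 3 of the 4 Con A + hWJ-MSCs mice.

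A few facts of the whole table bear on these values. Totals ran from 17649654 to 17657159, a range of 0.0425% of their median, and the median gene had the value 352 in all 12 mice. Con A + PBS replicate 4 stood apart from the rest of its group on the second principal component, at -55.2 against -15.0 to 7.57, and it had the lowest value of its group in 7 of the 10 receptors (Nr1h4, Nr0b2, Nr1i3, Nr1h3, Nr5a2, Esr1 and Nr3c1). Control replicate 1 was also the lowest of its group in 7 of the 10 (Nr0b2, Ppara, Rxra, Nr1h3, Nr5a2, Esr1 and Nr3c1).

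The promoters of the 4 receptors of bile acid and drug sensing, all called lower after Con A, are shown. Esr1 was also called lower and is not shown. They are RefSeq windows on GRCm38.p6, the assembly behind the mm10 coordinates of the deposited table, from 250 bases before to 50 bases after a start site, written 5′ to 3′ on the gene's strand. The RefSeq table held 13 windows for 9 of the 10 members. Capitals mark 6-base cores, searched on both strands: AGGTCA, the core that nuclear receptors recognize, TCAAGG, the core of an LRH-1 site, GTTAAT, a core of HNF1 sites, and AGAACA, a core of glucocorticoid receptor sites. The same search found AGGTCA in 16.3%, TCAAGG in 14.4%, GTTAAT in 7.10% and AGAACA in 19.0% of 32851 promoter windows of this length, so a single match is common. Windows of Esr1 and of Rxra and Nr5a2, which were not called, also hold such cores.
Nr0b2, chr4:133553126-133553425, plus strand: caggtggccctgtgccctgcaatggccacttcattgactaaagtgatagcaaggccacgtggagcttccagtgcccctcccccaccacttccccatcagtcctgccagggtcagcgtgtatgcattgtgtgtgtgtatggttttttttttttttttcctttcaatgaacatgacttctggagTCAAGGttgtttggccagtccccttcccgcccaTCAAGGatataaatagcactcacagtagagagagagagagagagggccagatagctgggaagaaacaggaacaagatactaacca
Nr1h4, chr10:89506609-89506908, minus strand: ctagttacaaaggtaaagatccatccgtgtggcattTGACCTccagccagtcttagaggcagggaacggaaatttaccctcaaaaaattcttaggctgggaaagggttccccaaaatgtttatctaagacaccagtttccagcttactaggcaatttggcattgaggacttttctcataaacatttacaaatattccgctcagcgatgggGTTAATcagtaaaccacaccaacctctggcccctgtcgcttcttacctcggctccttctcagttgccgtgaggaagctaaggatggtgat
Nr1i3, chr1:171213720-171214019, plus strand: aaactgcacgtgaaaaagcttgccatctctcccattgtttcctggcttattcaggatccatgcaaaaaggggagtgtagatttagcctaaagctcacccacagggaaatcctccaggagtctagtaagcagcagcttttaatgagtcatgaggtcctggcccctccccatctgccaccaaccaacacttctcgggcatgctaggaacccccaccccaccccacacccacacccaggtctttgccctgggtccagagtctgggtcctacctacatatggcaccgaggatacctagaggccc
Nr1i2, chr16:38294775-38295074, minus strand: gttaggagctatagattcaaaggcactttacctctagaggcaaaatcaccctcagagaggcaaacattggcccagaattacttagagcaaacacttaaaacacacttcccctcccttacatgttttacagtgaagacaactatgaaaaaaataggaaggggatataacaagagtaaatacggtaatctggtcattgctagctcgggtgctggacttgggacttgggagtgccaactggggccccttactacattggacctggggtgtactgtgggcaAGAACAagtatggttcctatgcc

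Nr0b2 encodes SHP, the corepressor that FXR induces and that shuts down bile acid synthesis by acting on LRH-1. Its transcript lies on chromosome 4 from 133553376 to 133556536 on mm10, and the window above, set on the same start site, holds TCAAGG at 68 and again at 35 bases before the start. The control livers had normalized values of 935, 991, 969 and 1029 (981 ± 39.4, SD, n = 4). The Con A + PBS livers had 238, 369, 345 and 22 (243.5 ± 158, SD, n = 4), and the Con A + hWJ-MSCs livers had 300, 310, 481 and 481 (393 ± 102, SD, n = 4). All 8 mice given Con A were below all 4 control mice, and replicate 4 of Con A + PBS was far below the other 3 of its group. Nr0b2 fell by 2.59 on the log2 scale after Con A (SE 0.67, limma, Benjamini-Hochberg adjusted p = 0.00593), a 6.03-fold lower level. Without Con A + PBS replicate 4 the log2 change was -1.65, and it was called in all 12 fits that left out 1 mouse. The values of the groups given Con A overlapped, with a difference of 1.24 for Con A + hWJ-MSCs against Con A + PBS (95% interval -0.22 to 2.699, limma, Benjamini-Hochberg adjusted p = 0.21). Without Con A + PBS replicate 4 this difference was 0.296 (limma, Benjamini-Hochberg adjusted p = 0.345). Against control the Con A + hWJ-MSCs difference was -1.35 (limma, Benjamini-Hochberg adjusted p = 0.127), and without Con A + PBS replicate 4, which also sets the shared spread, the same difference had an adjusted p of 1.4e-04 by limma and was called.

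Nr1h4 encodes FXR, the receptor that bile acids activate. It lies on chromosome 10 from 89454234 to 89506649 on the minus strand. Its promoter window is set on a start site 9 bases from the start of that transcript, with AGGTCA on the opposite strand 214 bases and GTTAAT 40 bases before that site. Normalized values were 3229, 2222, 2580 and 2314 in the control livers (2586 ± 455, SD, n = 4). They were 1696, 2288, 1962 and 610 in the Con A + PBS livers (1639 ± 727, SD, n = 4) and 2789, 3164, 2789 and 2904 in the Con A + hWJ-MSCs livers (2911.5 ± 177, SD, n = 4). Con A + PBS replicate 2 lay above control replicate 2, so these groups overlapped, whereas all 4 Con A + hWJ-MSCs mice were above all 4 Con A + PBS mice. Nr1h4 fell by 0.80 on the log2 scale after Con A (SE 0.32, 95% interval -1.49 to -0.11, limma, Benjamini-Hochberg adjusted p = 0.0486). This call lay at the threshold and held in only 2 of the 12 fits that left out 1 mouse, those without Con A + PBS replicate 2 or replicate 3. Without Con A + PBS replicate 4 the change was -0.38 (limma, Benjamini-Hochberg adjusted p = 0.041), below the fold required. The two-sided exact permutation test over the 8 mice gave p = 0.0571. With hWJ-MSCs the difference from Con A + PBS was 0.99 (SE 0.32, 95% interval 0.29 to 1.68, limma, Benjamini-Hochberg adjusted p = 0.0573), which missed the threshold although the groups did not overlap (two-sided exact permutation p = 0.0286, the smallest that 4 against 4 mice allow). Without Con A + PBS replicate 4 it was 0.56, and without replicate 2 of that group it was 1.199 and was called (limma, Benjamini-Hochberg adjusted p = 0.0272).

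Nr1i3 encodes CAR, which induces cytochromes P450 such as Cyp2b10 and transferases for drugs and bilirubin. It lies on chromosome 1 from 171213970 to 171218845, and its promoter window above, set on the same start site, holds 0 of the 4 cores. The control livers were close together, at 3866, 4044, 3751 and 3751 (3853 ± 138, SD, n = 4). The Con A + PBS livers had 1382, 2343, 2004 and 676 (1601 ± 734, SD, n = 4), and the Con A + hWJ-MSCs livers had 4044, 3922, 2830 and 4113 (3727 ± 603, SD, n = 4). Every Con A + PBS mouse was below every mouse of both other groups, and the Con A + hWJ-MSCs mice reached the control range apart from replicate 3, which lay below it. Nr1i3 fell by 1.41 on the log2 scale after Con A (SE 0.30, limma, Benjamini-Hochberg adjusted p = 0.0017), 2.66-fold lower, and all 12 fits without 1 mouse called it, at -1.05 without Con A + PBS replicate 4. With hWJ-MSCs it rose by 1.35 against Con A + PBS (SE 0.30, 95% interval 0.70 to 2.00, limma, Benjamini-Hochberg adjusted p = 0.0252), 2.55-fold higher. The difference from control was -0.06 with a 95% interval of -0.71 to 0.59 (limma, Benjamini-Hochberg adjusted p = 0.884). The rise with hWJ-MSCs was lost at the adjusted threshold in 3 of the 12 fits without 1 mouse. Its log2 change was 1.33 without Con A + PBS replicate 1, 1.32 without Con A + hWJ-MSCs replicate 2 and 1.48 without Con A + hWJ-MSCs replicate 3 (limma, Benjamini-Hochberg adjusted p = 0.0761, 0.0761 and 0.0574). In those fits only 7, 18 and 7 genes of the whole table were called, against 969 with all mice. Without Con A + PBS replicate 4 the change was 0.98 and was called.

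Nr1i2 encodes PXR, which induces Cyp3a enzymes in response to drugs and toxic bile acids. Its transcript lies on chromosome 16 from 38248323 to 38294824 on the minus strand, and the promoter window set on that start site holds AGAACA 27 bases after it. Control values were 1427, 1270, 1330 and 1342 (1342 ± 64.7, SD, n = 4), Con A + PBS values were 811, 730, 908 and 770 (805 ± 76.4, SD, n = 4) and Con A + hWJ-MSCs values were 871, 958, 1041 and 1042 (978 ± 81.5, SD, n = 4). The spread within each group was small, and the control mice stood clear of all 8 mice given Con A. Nr1i2 fell by 0.74 on the log2 scale after Con A (SE 0.099, limma, Benjamini-Hochberg adjusted p = 6.1e-05). Among the 5 receptors called it had the smallest standard error, and its change lay between -0.80 and -0.70 in the 12 fits without 1 mouse. The Con A + hWJ-MSCs livers differed from Con A + PBS by 0.28 (95% interval 0.07 to 0.50, limma, Benjamini-Hochberg adjusted p = 0.0699), with 1 Con A + hWJ-MSCs mouse below 1 Con A + PBS mouse (two-sided exact permutation p = 0.0571). Against control they differed by -0.46 (limma, Benjamini-Hochberg adjusted p = 0.00299), a 1.37-fold lower level that passed the p but not the fold change of 1.5.

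Esr1 encodes ERα, the oestrogen receptor, which in liver acts on lipid and glucose metabolism. It is listed on chromosome 10 from 4611593 to 4893083, by a transcript that the annotation calls a processed transcript without a coding sequence. Control livers had 822, 1052, 1174 and 1174 (1055.5 ± 166, SD, n = 4). Values were 468, 531, 476 and 219 in the Con A + PBS livers (423.5 ± 139, SD, n = 4) and 430, 528, 517 and 472 in the Con A + hWJ-MSCs livers (487 ± 44.9, SD, n = 4). Both groups given Con A were below all control mice and overlapped each other. Esr1 fell by 1.38 on the log2 scale after Con A (SE 0.23, limma, Benjamini-Hochberg adjusted p = 3.7e-04), 2.60-fold lower, and by 1.09 without Con A + PBS replicate 4. It also fell against control in the Con A + hWJ-MSCs livers, by 1.11 (SE 0.23, limma, Benjamini-Hochberg adjusted p = 0.0028). The difference between the groups given Con A was 0.27 (95% interval -0.24 to 0.78, limma, Benjamini-Hochberg adjusted p = 0.43), and it was -0.02 without Con A + PBS replicate 4.

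**Figure D2:**
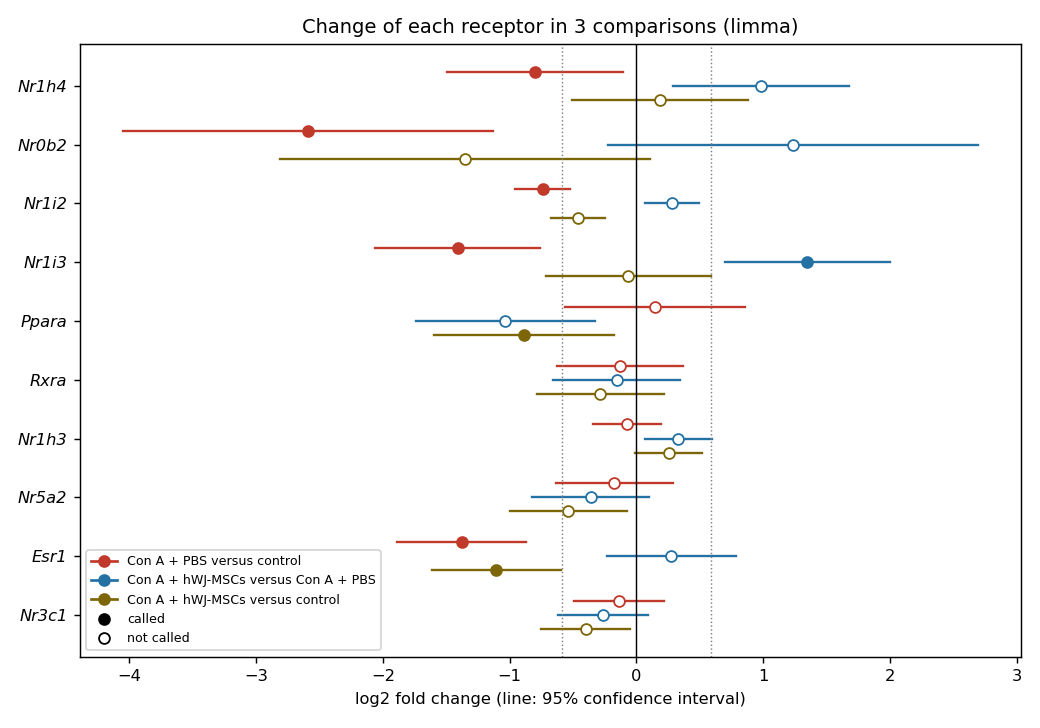
log2 fold change of each receptor (x axis) with its 95% confidence interval from limma, in Con A + PBS against control and in Con A + hWJ-MSCs against each of the other groups. Filled points were called, dotted lines mark a fold change of 1.5, and Nr1i3 is the only receptor filled in the comparison of Con A + hWJ-MSCs with Con A + PBS.

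Ppara encodes PPARα, which drives fatty acid oxidation and ketone body formation in the fasted liver. It lies on chromosome 15 from 85735776 to 85802819. The control livers spread widely, at 345, 940, 654 and 1074 (753 ± 324, SD, n = 4). The Con A + PBS livers had 822, 588, 778 and 910 (774.5 ± 136, SD, n = 4), and the Con A + hWJ-MSCs livers had 364, 361, 252 and 586 (391 ± 140.2, SD, n = 4). All Con A + hWJ-MSCs mice were below all Con A + PBS mice, by a margin of only 2 units between 586 and 588, while control replicate 1 was as low as the Con A + hWJ-MSCs mice. Con A did not change Ppara at the threshold (log2 difference 0.15, 95% interval -0.56 to 0.86, limma, Benjamini-Hochberg adjusted p = 0.722), and the sign turned to -0.19 without control replicate 1. With hWJ-MSCs the difference from Con A + PBS was -1.03 (SE 0.33, 95% interval -1.74 to -0.32, limma, Benjamini-Hochberg adjusted p = 0.0539), just short of a call. It was called in 3 of the 12 fits without 1 mouse, at -1.03 without control replicate 1, -1.16 without Con A + PBS replicate 2 and -1.25 without Con A + hWJ-MSCs replicate 4 (limma, Benjamini-Hochberg adjusted p = 0.0236, 0.0415 and 0.0313). Against control, Ppara fell by 0.89 in the Con A + hWJ-MSCs livers (limma, Benjamini-Hochberg adjusted p = 0.046), although these groups overlapped (two-sided exact permutation p = 0.114). That call was lost in 8 of the 12 fits without 1 mouse, where the change lay between -0.91 and -0.67, and it held only without control replicate 1, Con A + PBS replicate 2 or 4, or Con A + hWJ-MSCs replicate 4.

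Rxra, Nr1h3, Nr5a2 and Nr3c1 were not called in any of the 3 comparisons. For Rxra, the shared partner, on chromosome 2 from 27676440 to 27741898, the control livers had 3260, 6516, 5899 and 8219 (5973.5 ± 2058, SD, n = 4). The Con A + PBS livers had 5128, 4824, 5239 and 5548 (5185 ± 299, SD, n = 4), and the Con A + hWJ-MSCs livers had 3795, 4824, 4452 and 5726 (4699 ± 806, SD, n = 4). Con A + PBS mice were close together and lay inside the wide control range, with a log2 difference of -0.13 (95% interval -0.63 to 0.37), which became 0.05 without control replicate 4. The difference of Con A + hWJ-MSCs from Con A + PBS was -0.16 (95% interval -0.66 to 0.34), and from control it was -0.29 (95% interval -0.79 to 0.21).

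Nr1h3, the oxysterol receptor LXRα, lies on chromosome 2 from 91184061 to 91195025. Its mean normalized values were 1571.5 ± 60.5 in control livers, 1507 ± 234 after Con A + PBS and 1883 ± 189 after Con A + hWJ-MSCs (SD, n = 4). Con A + hWJ-MSCs mice, from 1720 to 2132, were above all control mice, from 1486 to 1628, and overlapped the Con A + PBS mice, from 1184 to 1729. The log2 differences were 0.33 from Con A + PBS (95% interval 0.07 to 0.60, limma, Benjamini-Hochberg adjusted p = 0.0812) and 0.26 from control (95% interval -0.01 to 0.52, limma, Benjamini-Hochberg adjusted p = 0.112). Con A + PBS differed from control by -0.07 (95% interval -0.34 to 0.19), and by 0.04 without Con A + PBS replicate 4.

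Nr5a2, the gene of LRH-1, which activates bile acid synthesis genes and Nr0b2 itself, had normalized values of 601 ± 154 in control livers, 525.5 ± 98.3 after Con A + PBS and 410.25 ± 92.8 after Con A + hWJ-MSCs (SD, n = 4). It lies on chromosome 1 from 136843584 to 136960427. All pairs of groups overlapped. The log2 differences were -0.17 for Con A + PBS against control (95% interval -0.63 to 0.29), -0.36 for Con A + hWJ-MSCs against Con A + PBS (95% interval -0.82 to 0.10) and -0.54 for Con A + hWJ-MSCs against control (95% interval -0.997 to -0.08, limma, Benjamini-Hochberg adjusted p = 0.0606). The last was called without control replicate 1, at -0.71, and without Con A + hWJ-MSCs replicate 4, at -0.68 (limma, Benjamini-Hochberg adjusted p = 0.0156 and 0.028).

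Nr3c1, the glucocorticoid receptor, the stress hormone sensor that restrains inflammation and induces gluconeogenic enzymes, had normalized values of 2093 ± 288 in control livers, 1933 ± 470.5 after Con A + PBS and 1575.5 ± 102 after Con A + hWJ-MSCs (SD, n = 4). The Con A + hWJ-MSCs mice, from 1454 to 1698, were all below the control mice, from 1741 to 2362, and lay within the Con A + PBS range of 1400 to 2530. Against control the Con A + hWJ-MSCs difference was -0.40 on the log2 scale (95% interval -0.75 to -0.05, limma, Benjamini-Hochberg adjusted p = 0.066). Con A + PBS differed from control by -0.14 (95% interval -0.49 to 0.22), and by 0.01 without Con A + PBS replicate 4. Between the groups given Con A the difference was -0.26 (95% interval -0.62 to 0.09).

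**Figure D3:**
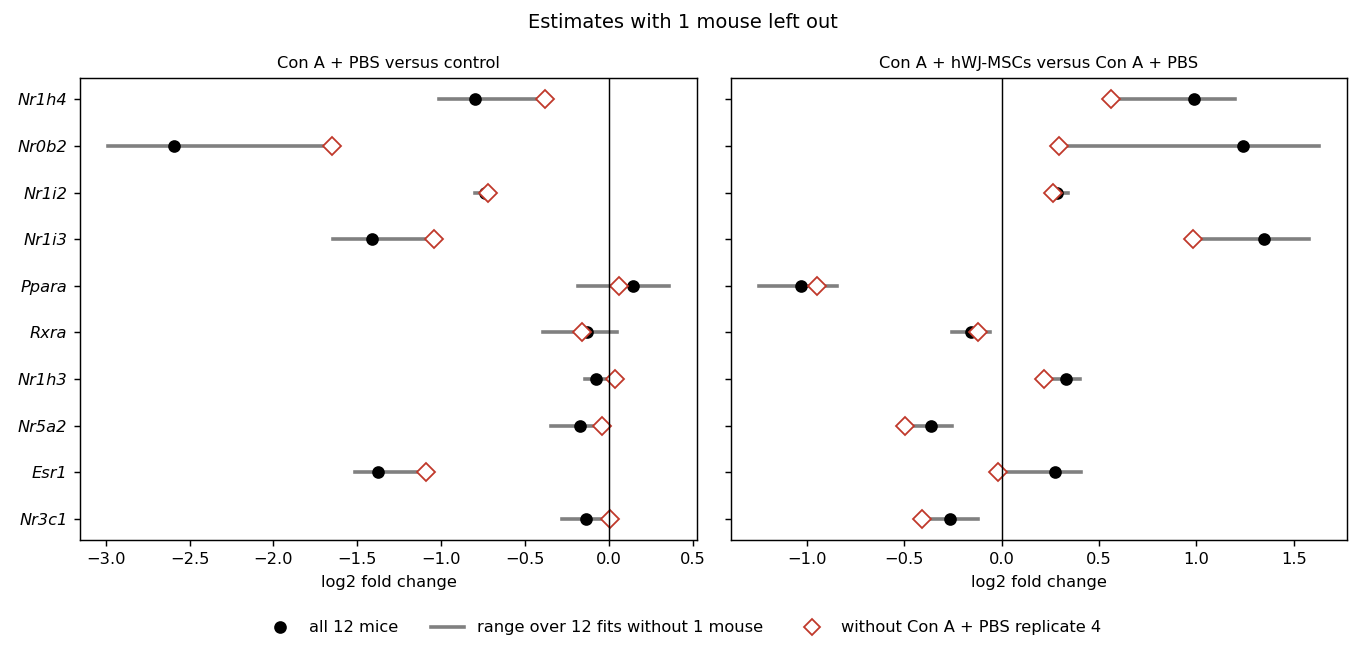
log2 fold change of each receptor (x axis) with all 12 mice (black points), the range over the 12 fits that each left out 1 mouse (grey lines) and the fit without Con A + PBS replicate 4 (open red diamonds), for Con A + PBS against control (left) and Con A + hWJ-MSCs against Con A + PBS (right). Leaving out that mouse brought Nr0b2 from -2.59 to -1.65 and Nr1h4 from -0.80 to -0.38 on the left, and moved Nr1i2 least among the 5 called receptors.

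Since FXR, PXR, CAR, PPARα and LXRα share RXRα, the level of each partner was also compared with that of Rxra in the same mouse. The ratio of Nr1i3 to Rxra had medians of 0.628 in control livers, 0.326 after Con A + PBS and 0.766 after Con A + hWJ-MSCs. It ranged from 0.122 to 0.486 in the Con A + PBS mice and from 0.636 to 1.07 in the Con A + hWJ-MSCs mice, with no overlap, whereas control mice ranged from 0.456 to 1.19. Of the 5 partners, only Nr1i3 was called against Rxra after Con A, with a fall larger by 1.28 on the log2 scale (log2 difference -1.28, SE 0.37, limma, Benjamini-Hochberg adjusted p = 0.013), in a comparison where 28.5% of all genes differed from Rxra. Without Con A + PBS replicate 4 the Nr1i3 difference was -0.88 and missed the adjusted threshold (limma, Benjamini-Hochberg adjusted p = 0.0627), which left 0 partners called. Nr1i2 differed from Rxra by -0.61 and would have passed only without the adjustment (limma, Benjamini-Hochberg adjusted p = 0.117). It was called without control replicate 4, at -0.79, and was -0.32 without control replicate 1. Nr1h4, at -0.67, was not called (limma, Benjamini-Hochberg adjusted p = 0.229).

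The ratio of Ppara to Rxra varied less between control mice than Ppara itself, from 0.106 to 0.144. It was 0.122 to 0.164 in the Con A + PBS mice and 0.0566 to 0.102 in the Con A + hWJ-MSCs mice. The Con A + hWJ-MSCs mice were below all 8 other mice, and 5.16% of all genes had a lower ratio without overlap in the comparison with control. For Nr1h4 the median ratio was 0.389 in control livers, 0.353 after Con A + PBS and 0.641 after Con A + hWJ-MSCs. The partners Nr1i2 and Nr1h3 had median ratios of 0.155 and 0.312 after Con A + PBS and of 0.214 and 0.408 after Con A + hWJ-MSCs. Between the groups given Con A the ratio did not overlap for any of the 5 partners, with Nr1h4, Nr1i2, Nr1i3 and Nr1h3 higher and Ppara lower with hWJ-MSCs. The 5 ratios share Rxra, whose own log2 difference was -0.16, so they are not separate results. The values of Nr1i2 and Nr1h3 themselves overlapped between these groups. Over all genes, the ratio to Rxra was higher without overlap in 7.89% and lower in 3.38%. By limma, 0 partners differed from Rxra in Con A + hWJ-MSCs against Con A + PBS at an adjusted p below 0.05, where only 0.115% of all genes did. Without the adjustment 3 partners would have passed, Nr1i3 (1.504), Ppara (-0.88) and Nr1h4 (1.14), whose limma, Benjamini-Hochberg adjusted p were 0.0949, 0.137 and 0.213. In Con A + hWJ-MSCs against control, limma called 0 partners, where 19% of all genes differed from Rxra, and Ppara (-0.60, limma, Benjamini-Hochberg adjusted p = 0.104) was the only partner that would have passed without the adjustment.

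**Figure D4:**
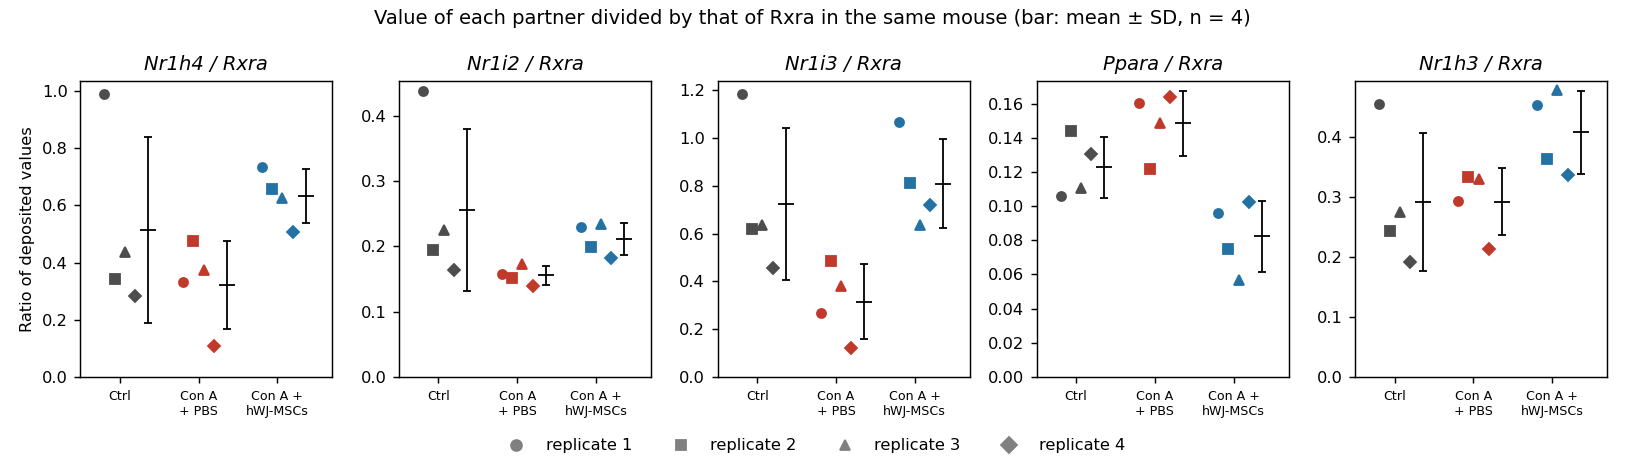
Normalized value of each RXRα partner divided by that of Rxra in the same mouse (y axis, linear from 0), by group (x axis), with marker shapes for replicates 1 to 4 and bars for the mean ± SD (n = 4). The high control point in Nr1h4, Nr1i2, Nr1i3 and Nr1h3 is replicate 1, whose Rxra value of 3260 was the lowest of all mice, and the Ppara ratio was lower in each Con A + hWJ-MSCs mouse than in the other 8 mice.

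To order the receptors by level, values were taken per kb of transcript, unlike the ratios to Rxra, which are not scaled by length and serve only to compare mice. With the mean length of each gene's coding transcripts, control livers held 2354 ± 811 units per kb of Rxra and 2184 ± 78.4 of Nr1i3, which did not differ beyond their spread (SD, n = 4). Nr1h4 followed at 1301 ± 229 units per kb. Nr1h3 at 877 ± 33.8, Nr0b2 at 867 ± 34.8 and Nr3c1 at 790.2 ± 109 formed a middle group that overlapped, ahead of Nr1i2 at 526 ± 25.3. Ppara at 283 ± 121, Esr1 at 263 ± 41.4 and Nr5a2 at 241 ± 61.9 were lowest and overlapped. After Con A + PBS, Nr0b2 stood at 215 ± 140 units per kb, within the spread of Nr5a2 at 211 ± 39.4, and Nr1i3 at 907 ± 416 was within that of Nr1h3 at 841 ± 130.4. In Con A + hWJ-MSCs livers Nr1i3, at 2112 ± 342, and Rxra, at 1852 ± 318, again led without differing beyond their spread. Lengths matter to this order: the single transcript listed for Rxra has only 628 bases and would give 9512 ± 3277 units per kb in control livers, and the 6436 bases listed for Nr3c1 would give 325 ± 44.7.

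By the likeness of the profile over the 12 mice, measured as the root mean square difference in centred log2 values, Nr1h4 was nearest to 0610005C13Rik at 0.145 and Bcat2, a branched-chain amino acid transaminase, at 0.150. For Nr1i3 these were Stradb at 0.195 and Pbld1 at 0.210. Nr1i2 was nearest to 0610009O20Rik at 0.107 and Dym at 0.109, and Esr1 to Homer2 at 0.160 and Mgam at 0.177. The nearest genes of Nr0b2, Adra1b, the hepatic alpha-1B adrenoceptor, at 0.512 and Ntn3 at 0.521, lay farther off than those of the other 4 receptors. This measure grows with the size of a gene's own changes, and Nr0b2 changed most of these receptors after Con A.

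Other nuclear receptors that were called after Con A also fell. Of 26 in the table, 12 fell, 0 rose and 14 were not called, where 19.2% of all genes were called lower and 19.5% higher, with a median log2 change of -0.60 against 0.05 over all genes, while the 10 metabolic receptors had a median of -0.46. In the 12 fits without 1 mouse, 11 to 13 of the 26 fell. Every gene in the table reaches a value of 64 in at least 2 mice, so a gene that stayed below 64 after Con A is in the table only because it was higher in control livers, and 2 of the 12 falls, those of Nr1h5 and Rarb, are of this kind. Of the 23 receptors that reached 64 in at least 2 mice of both groups, 10 fell. The largest changes were those of Nr1h5 (FXRβ, a receptor for sterols in mice), Thra (a thyroid hormone receptor) and Nr6a1 (an orphan receptor). Nr1h5, which is in the table only through the control livers, went from 137 ± 28.4 in control to 12.75 ± 9.84 in Con A + PBS livers (SD, n = 4), a log2 change of -4.01 whose direction the limit on low values had fixed. Thra fell by 1.60 and Nr6a1 by 1.41. In Con A + hWJ-MSCs against Con A + PBS, 2 of the 26 rose (Rxrg and Nr2f2) and 2 fell, with a median of 0.08, where 4.2% of all genes were called higher and 4.38% lower, and the 2 that fell were Nr1d2 (-1.39), a clock repressor, and Nr2c2 (-1.32), an orphan receptor. Nr1d2 lost its call in 5 and Nr2c2 in 7 of the 12 fits without 1 mouse, both of them without Con A + PBS replicate 4 among others. Over all these fits 0 to 2 of the 26 rose and 0 to 3 fell.

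After Con A, coregulators moved in both directions, and the chaperones that were called all rose. Of 18 coregulators, 3 rose and 2 fell after Con A, with a median of -0.08, and both shares were below those of all genes, 19.5% higher and 19.2% lower. Ppargc1b (PGC-1β, a coactivator of mitochondrial genes) went from 64.25 ± 19.2 in control to 20.25 ± 2.06 in Con A + PBS livers (SD, n = 4), a log2 change of -1.57, and is in the table only through its level in control livers. Tbl1xr1, a subunit of corepressor complexes, rose by 1.04 and Kdm1a, a histone demethylase, rose by 0.68. With hWJ-MSCs 0 rose and 2 fell against Con A + PBS, where 4.2% of all genes were called higher and 4.38% lower. These were Nrip1 (-0.87), a corepressor also called RIP140, and Ncoa2 (-0.69), a coactivator of steroid receptors, calls that were lost in 3 and 6 of the 12 fits without 1 mouse. The list of 11 chaperones and cochaperones is mostly of the cytosolic machinery that holds steroid receptors ready for ligand. Of these 7 rose and 0 fell after Con A, with a median of 0.74, where 19.5% of all genes were called higher. Hsp90aa1, the inducible HSP90, went from 2592.5 ± 555 in control to 13849.75 ± 4809 in Con A + PBS livers (SD, n = 4), a log2 change of 2.37 (limma, Benjamini-Hochberg adjusted p = 7.0e-06). Dnajc3, a cochaperone of the endoplasmic reticulum rather than of the receptor complex, rose by 1.496 and Fkbp5, which holds the glucocorticoid receptor in a state of low affinity, by 1.40. With hWJ-MSCs only Hspa8 was called, at -0.82, and its call was lost in 3 of 12 fits without 1 mouse.

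Genes known to be regulated by these receptors were counted in 5 hand-made lists, as a description of their levels and not of receptor activity. The counts after Con A are to be read against the 19.5% of all genes called higher and the 19.2% called lower. Of 14 bile acid genes under FXR, SHP and LRH-1, 9 fell and 1 rose after Con A (median -2.002), the same counts as without Con A + PBS replicate 4. Cyp8b1, the sterol 12-alpha-hydroxylase, fell by 5.98, Cyp7a1, the rate-limiting enzyme of bile acid synthesis, fell by 5.69 and Abcb11, the bile salt export pump, fell by 3.67. Nr0b2, whose product represses Cyp7a1 and Cyp8b1, fell in the same livers. Of 24 genes listed for drug metabolism under PXR and CAR, 16 fell and 1 rose (median -2.12), with log2 changes of -5.02 for Cyp2c50, -4.74 for Cyp3a25 and -4.36 for Cyp2c54, members of a family whose close copies can share reads. The 1 that rose, Gadd45b, is a growth arrest gene and not a drug metabolism enzyme. Cyp2b10, the usual marker gene of CAR, was not called, at -0.84.

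Sterol and lipogenic genes under LXR also fell, 12 of 15 with 2 that rose (median -1.43), among them Fasn by 3.13 and Srebf1 by 2.42, while Nr1h3 itself was not called. Scd1, the stearoyl-CoA desaturase, was also called lower, with a log2 change of -3.31, but 3 of its 4 control mice sat at the largest value of the table, 341028, and the other, at 44548, had the same value as the highest Con A + PBS mouse, so the size of this change is limited by that ceiling. The 28 lipid genes under PPARα were mixed, with 8 that rose and 5 that fell (median 0.37), against 19.5% of all genes higher and 19.2% lower, so the share that fell was no larger than over all genes. Plin2, the lipid droplet protein, rose by 2.76 and Pdk4, the kinase that shuts off pyruvate dehydrogenase, by 2.17, whereas Acaa1b, a peroxisomal thiolase, fell by 2.53. Of 20 genes under the glucocorticoid receptor 8 rose and 3 fell (median 0.42), a share lower that was below the 19.2% of all genes, with Cdkn1a up by 2.86, the metallothionein Mt2 by 2.52 and Igfbp1 by 2.497. Of all these falls, those of Gsta2 in the drug metabolism list and Mylip in the LXR list are of genes that are in the table only through the control livers. Each gene named here with its change as risen or fallen after Con A kept its call in all 12 fits without 1 mouse.

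The counts with hWJ-MSCs against Con A + PBS are to be read against the 4.2% of all genes called higher and the 4.38% called lower. Among the bile acid genes 4 rose and 1 fell (median 0.63), and Slc10a1, the bile acid uptake transporter, rose by 1.53. Cyp7a1 and Cyp8b1 were not called, at 1.52 and 2.96 (limma, Benjamini-Hochberg adjusted p = 0.0683 and 0.0747). In the drug metabolism list 3 rose and 2 fell (median 0.34), with Cyp3a25 at 1.65 and Gadd45b at -1.50. The 2 that fell were Gadd45b and Alas1, neither of them an enzyme or transporter of drugs. In the PPARα list 1 rose, a share below that of all genes, and 3 fell (median -0.06), where Pdk4 fell by 2.67 and Plin2 by 1.38. In the LXR list Lpl rose by 1.26 and Abca1 fell by 1.48 (median 0.07), and in the glucocorticoid receptor list 0 rose and 3 fell (median -0.53), with Igfbp1 at -2.71 and Dusp1 at -1.68. These counts depended on single mice, in both directions. Over the 12 fits without 1 mouse, 0 to 7 of the bile acid genes rose and 0 to 1 fell, and 0 to 4 of the drug metabolism genes rose and 0 to 3 fell. In the PPARα list 0 to 2 rose and 0 to 6 fell, in the LXR list 0 to 3 and 0 to 1, and in the glucocorticoid receptor list 0 to 1 and 0 to 5. The bile acid list had 1 rise and 0 falls without Con A + PBS replicate 4. In that fit the drug metabolism list had 1 and 0, the PPARα list 0 and 2, the LXR list 0 and 1 and the glucocorticoid receptor list 0 and 1. Slc10a1 lost its call in 10, Gadd45b in 11, Lpl and Dusp1 in 9, Pdk4 and Igfbp1 in 5 and Cyp3a25, Plin2 and Abca1 in 3 of the 12 fits without 1 mouse.

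**Figure D5:**
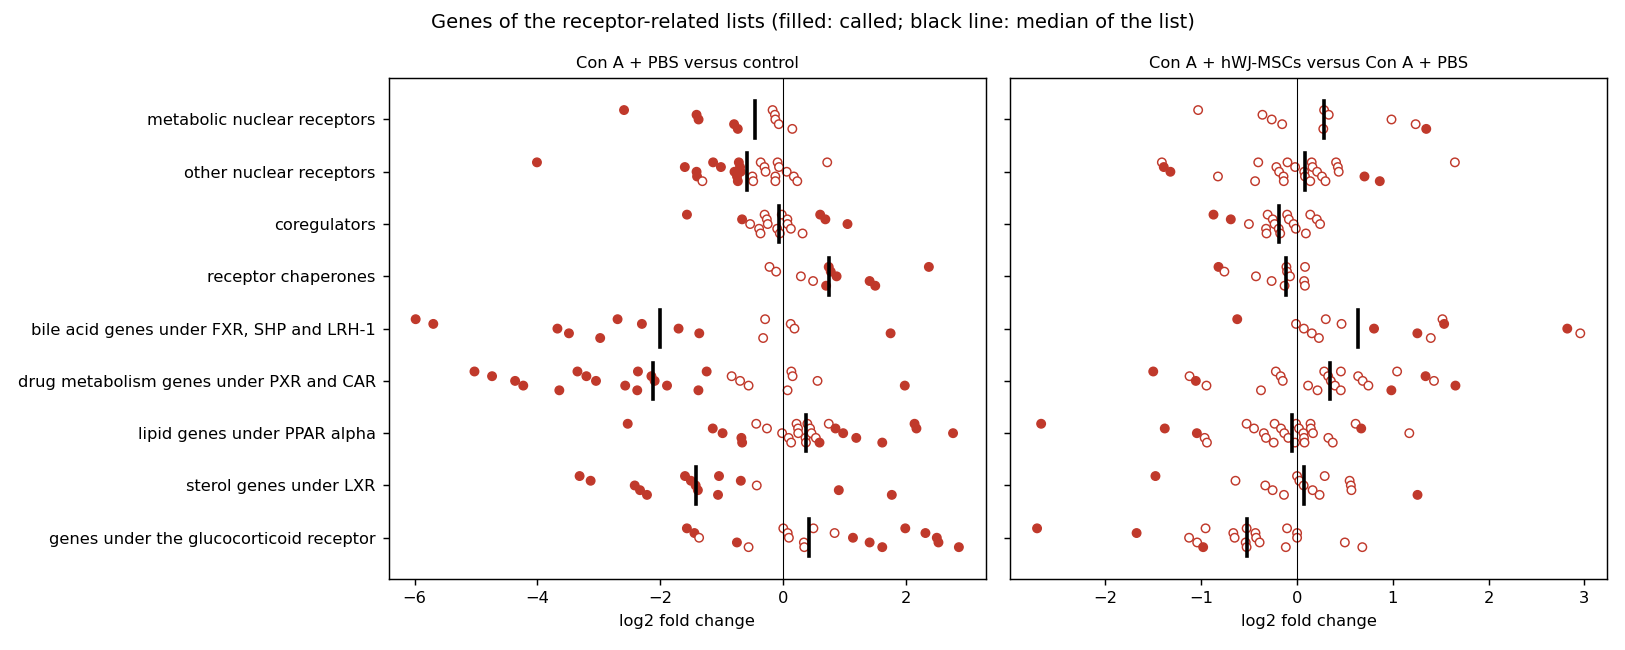
log2 fold change of each gene of the 10 receptors and the lists of other receptors, coregulators, chaperones and regulated genes (x axis), in Con A + PBS against control (left) and Con A + hWJ-MSCs against Con A + PBS (right). Filled points were called and black lines mark the median of a list, which lay at -2.002 for the bile acid genes and -2.12 for the drug metabolism genes on the left.

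Markers of the cells in the liver moved with the same comparisons, and their counts after Con A are to be read against 19.5% of all genes called higher and 19.2% called lower. Of 14 hepatocyte markers listed 13 were in the table, and of these 5 fell and 1 rose after Con A. Their summed value was 1558352 to 1985170 in control livers, 1582133 to 1648834 after Con A + PBS and 1654287 to 1712460 after Con A + hWJ-MSCs, sums that are limited because 10 genes in each mouse sit at the same largest value of 341028. Of 10 neutrophil markers listed 7 were in the table, and 6 of these did not reach 64 in 2 control mice, so they could enter the table only through the mice given Con A and their rise says nothing further. Those 6 summed to 70 to 147 in control livers, 1092 to 1982 after Con A + PBS and 851 to 1715 after Con A + hWJ-MSCs. The remaining marker, Lcn2, which hepatocytes also make in the acute phase, ran from 1020 to 4920, from 72682 to 341028 and from 58038 to 72682 in the same order, and its highest value is the largest that the table holds. The 3 T cell markers in the table, of 12 listed, are likewise there only through the mice given Con A, with sums of 31 to 78 in control livers, 232 to 481 after Con A + PBS and 269 to 375 after Con A + hWJ-MSCs.

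Of 13 macrophage markers 10 fell and 3 rose (Cd68, Ccr2 and Ly6c2), with sums of 6585 to 10358, 2432 to 3495 and 1536 to 3687 in the same order, and of the 8 that reached 64 in 2 mice of both groups 6 fell and 2 rose. The sums include 4 falls and 1 rise of genes whose direction the limit on low values had fixed. By flow cytometry the paper reported more macrophages after Con A, so these sums do not count macrophages. Among 12 markers of sinusoidal endothelium 8 fell and 1 rose, with sums of 4418 to 6337, 2055 to 3116 and 2538 to 3550, and of the 9 that reached 64 on both sides 5 fell and 1 rose. These sums include 3 falls of genes that are in the table only through the control livers. Stellate cell markers fell in 3 of 9, and Dcn alone made up 54.7% of their sum in control livers and 69.6% after Con A + PBS. The other 8 summed to 2185 to 3727 in control livers, 1698 to 2511 after Con A + PBS and 2022 to 6888 after Con A + hWJ-MSCs. Cholangiocyte markers rose in 1 of 4, and Spp1 alone made up 83.1% of their sum in control livers and 87.6% after Con A + PBS, while the other 3 summed to 544 to 674 and 612 to 1239 in these groups and to 698 to 782 after Con A + hWJ-MSCs. Between the groups given Con A, 1 endothelial marker rose and 2 fell, and 0 markers of the other 6 lists were called, where 4.2% of all genes were called higher and 4.38% lower. None of these markers was at 0 throughout a group. The part of the cell composition in the receptor results was not tested.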

How the data were processed

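Total RNA of 12 mouse livers was made into poly-A selected libraries and read as 150-bp paired ends. The submitters' processing notes name Bowtie2 2.2.1, RSEM 1.2.18 and the build mm10. The authors deposited 1 score per gene and mouse, a whole number already normalized between mice by a method not given in the sources used here, and not a read count. Every gene of the table reaches a score of 64 in at least 2 mice, which means that lower genes are not in it. Depth is unknown, so no counting error is given, and no test for counts was used.

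The log2 of the score plus 1 was fitted by limma (version 3.58.1, under R 4.3.3) with lmFit and eBayes with a trend, for all 12 mice in 1 model without covariates, and the test was checked on simulated data. Fold changes on this scale understate those of low genes. Calls needed an adjusted p (Benjamini-Hochberg, over all genes) below 0.05 and a fold change above 1.5. Single receptors were also tested by two-sided exact permutation over 8 mice, which cannot give a p below 0.0286. Partners were fitted as differences from Rxra in the same mouse, over 11288 genes. Summaries and plots were made in Python 3.11.15 with matplotlib 3.10.9, scipy 1.17.1, numpy 2.4.6 and pandas 2.3.3.

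The receptors, the gene lists and the tests were chosen with earlier results of these data known. Named were all 10 receptors, the 3 genes of each list with the largest change among those called after Con A, the 2 with the largest among those called with hWJ-MSCs, and the 2 genes nearest in profile to each receptor called after Con A. Rxrg, Nr2f2, Rarb, Cyp2b10, Gsta2, Mylip, Alas1, Lcn2, Cd68, Ccr2, Ly6c2, Dcn and Spp1 were named outside this rule, after their values were seen. A gene that meets the rule is not reported here. Samples were grouped by their treatment labels, which number 4 mice in each group. As alternatives, the pseudocount was raised to 10, genes with a mean score under 100 were dropped, log2 values were quantile normalized or centred on each mouse's median, eBayes was run without its trend, only the 8 mice compared were fitted, the replicate number was added as a block, the unadjusted p or a fold change of 2 was used, each mouse was left out in turn, and lengths of coding transcripts replaced those listed for levels per kb. Their use on the lists was added after seeing the data. Counting by strand is not given in the sources used here, so antisense transcripts cannot be told apart.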

Additional observations from a re-analysis of the deposited data

Results flagged for a closer look

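Of the 30 sets of 4 values given by the 10 receptors in the 3 groups, 1 held a mouse far from the others. Nr1i3 in Con A + hWJ-MSCs replicate 3 had a normalized value of 2830, against 3922 for the nearest of the other 3 mice of the group. The gap was 0.851 of the whole range of the group, above the critical value of Dixon's test for 4 values, which chance passes in about 1 of 20 groups. Without this mouse Nr1i3 differed from control by 0.06 on the log2 scale instead of -0.06, and its rise over Con A + PBS was 1.48 (limma, Benjamini-Hochberg adjusted p = 0.0574).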

How the results depend on the processing

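Over 30 log2 changes of the receptors and 21 alternatives, 583 of 630 values kept direction and side of the threshold, 28 lost a call, 13 gained it and 6 changed sign. Centring on the median moved 0 values and quantile normalization at most 0.081 on the log2 scale, since the scores were already normalized between mice, so these 2 alternatives say little, and without them 523 of 570 values were kept. The 6 values that changed sign were not called in any of these fits. Over the 12 fits without 1 mouse, the change after Con A ran from -0.19 (without control replicate 1) to 0.36 for Ppara, from -0.40 to 0.049 (without control replicate 4) for Rxra, and, with the highest value in each without Con A + PBS replicate 4, from -0.14 to 0.037 for Nr1h3 and from -0.28 to 0.0075 for Nr3c1. Esr1 ran from -0.017 (without Con A + PBS replicate 4) to 0.41 between the groups given Con A, and Nr1i3 from -0.12 to 0.064 against control (0.064 without Con A + hWJ-MSCs replicate 3). The 5 receptors called after Con A became 3 with a fold change above 2 (2391 genes of the table against 4379) and 4 to 5 in the fits without 1 mouse. Nr1h4 also lost its call with eBayes without a trend and with only the 8 mice compared (limma, Benjamini-Hochberg adjusted p = 0.0568 and 0.0946). The 1 receptor called with hWJ-MSCs against Con A + PBS became 2 with only the 8 mice compared (722 genes against 969) and 3 by unadjusted p (1697 genes), and 0 to 3 without 1 mouse (7 to 1575 genes), while a fold change above 2 left 353 genes. The 2 called against control became 1 without a trend, 1 with a fold change above 2 (1539 genes against 3015), and 1 to 3 without 1 mouse. Partners differing from Rxra ran from 0 to 2 in each comparison without 1 mouse, with 2417 to 5388, 2 to 302 and 1227 to 5869 genes against 3213, 13 and 2144. In Con A + hWJ-MSCs against Con A + PBS, 13 genes became 56 with a pseudocount of 10, 27 with a mean score of at least 100, 4 without a trend and 3 with only the 8 mice compared. The cause of these shifts was not tested.

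Replicate numbers are shared between groups, and 4 of 12 same-numbered pairs had a correlation of their deviations above 0.1 (-0.12 to 0.37). The highest were 0.37 and 0.24, for replicates 2 and 4 between the groups given Con A. These values do not settle whether the numbers pair the mice, and the main fit used no pairing. With the replicate block, 3 receptors were called with hWJ-MSCs against Con A + PBS (1297 genes), Nr1h4 and Ppara in addition (limma, Benjamini-Hochberg adjusted p = 0.0439 and 0.0332), and 3 partners differed from Rxra (676 genes), with 5 and 2 receptors in the comparisons with control, 3387 genes differing from Rxra against 2144 in the last. Of 817 values of 39 named changes of list genes under these alternatives, 717 kept their call, 100 lost it and 0 changed sign. The mean length of coding transcripts moved the level per kb of Nr1i3, Rxra, Nr1h3, Nr5a2, Esr1 and Nr3c1 by more than their spread in control and Con A + hWJ-MSCs livers, and that of Ppara, Rxra, Nr5a2 and Nr3c1 in Con A + PBS livers. Depth is unknown for these scores, and 4 mice a group limit the precision throughout.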
